A study of Rattus norvegicus with 12 samples.

Results

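Progesterone was compared with its oil vehicle in the uterus of Holtzman Sprague Dawley (HSD) rats by RNA sequencing of polyadenylated RNA from whole tissue. HSD-P4 denotes progesterone and HSD-Oil denotes sesame oil, and the comparison took 6 of the 12 libraries of the series, 3 in each group. All females had lost their ovaries, had rested for 2 weeks after the operation and were 10 weeks old. They received 40 µg of progesterone per g of body weight under the skin, or oil alone, and the uterus was collected 9 h later; the labels name no estrogen in either group. The other 6 libraries came from Brown Norway (BN) rats treated in the same way, and they entered the fit as the BN-P4 and BN-Oil groups. Each library carries its own number in the labels, and nothing states whether litters or cages were shared. If any of the numbers stood for the same animal, the p-values would measure only the spread between libraries.

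Progesterone acts through the progesterone receptor, a nuclear receptor that binds DNA as a dimer at palindromic elements which the glucocorticoid receptor also recognises. In the uterus it is known for opposing estrogen-driven growth of the epithelium, for keeping the muscle layer quiet and for turning the lining toward the state that accepts an embryo. The gland secretions, peptide hormones and growth factors that it induces are released through the secretory pathway, which begins in the endoplasmic reticulum.

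The HSD-P4 libraries held 12224142, 18859636 and 18164999 reads assigned to genes, and the HSD-Oil libraries held 18880375, 17971851 and 17435481. Of 26312 genes in the tables, 15697 passed the filter on low counts and were tested. Levels are given as CPM, assigned-read counts scaled to a common total after TMM scaling for library composition; they are not divided by gene length, so they are compared here between groups for a gene and not between genes. In a principal component analysis of the 6 libraries the first component held 62.2% of the variance and separated HSD-P4 (34.8 to 55.4) from HSD-Oil (-51.7 to -40.7). The second component held 15.9% and set HSD-P4 replicate 2 (32.8) apart from HSD-P4 replicate 3 (-40.0). The summed level of 13 smooth muscle markers was lowest in that replicate 3 (10431 CPM) and highest in that replicate 2 (20632 CPM). Index barcodes do not overlap between the groups, so any batch tied to them and the treatment cannot be told apart.

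Markers of epithelium, stroma and smooth muscle were all present, and none of these 3 lists had a member at or under 3 reads in all 6 libraries. Summed epithelial markers lay at 1647 to 1720.5 CPM in HSD-P4 and 1417 to 1898 CPM in HSD-Oil. Of these 18 markers 2 rose and 6 fell (3 without HSD-Oil replicate 1). Summed stromal fibroblast markers overlapped, at 4783 to 6104 CPM in HSD-P4 and 5763 to 6198 CPM in HSD-Oil, with 2 of 13 risen and 2 fallen. Scaled to library size alone they did not overlap, at 4469 to 5889 in HSD-P4 and 5973 to 6360 in HSD-Oil. Smooth muscle markers overlapped between the groups (10431 to 20632 CPM in HSD-P4, 12043 to 17113 CPM in HSD-Oil). None of the 13 changed, although 4 rose without HSD-P4 replicate 3. The 15 tested macrophage and dendritic cell markers overlapped as well (1074 to 1255 CPM in HSD-P4, 1010 to 1179 CPM in HSD-Oil). Of these 5 rose, or 2 with scaling to library size alone. By the same test, given in the next paragraph, 20.3% of all tested genes rose and 18.7% fell. The 5 tested red blood cell markers summed to 553 to 591 CPM in HSD-P4 and 280 to 404 CPM in HSD-Oil, without overlap. No tested member of that list changed (1 rose without HSD-P4 replicate 1 or 3). The 8 mesothelial markers summed to 367 to 506 CPM in HSD-P4 and 483 to 593 CPM in HSD-Oil. For the 10 tested nerve and Schwann cell markers the sums were 76.2 to 100.4 CPM in HSD-P4 and 96.3 to 125.8 CPM in HSD-Oil. Both sums overlapped between the groups, but neither did when reads were scaled to library size alone. Sums were higher without overlap for 13 tested T and NK cell markers (79.2 to 90.0 CPM in HSD-P4, 63.8 to 69.9 CPM in HSD-Oil). The same held for 8 tested adipocyte markers (215.6 to 261.7 CPM in HSD-P4, 178.8 to 196.8 CPM in HSD-Oil). The part these markers have in the results was not tested, and in whole tissue fewer cells of a type and less RNA per cell cannot be told apart.

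At 9 h progesterone had changed 6133 genes, 39.1% of those tested, by edgeR's quasi-likelihood test at a Benjamini-Hochberg adjusted p under 0.05. Of these 3193 rose, which is 20.3% of tested genes, and 2940 fell, which is 18.7%. A change of at least 2-fold was met by 1685 genes (10.7%), 858 up (5.47%) and 827 down (5.27%). The largest changes were mostly rises: 85 genes rose and 42 fell at least 8-fold, and 26 rose and 6 fell at least 32-fold. Summed over genes, the called rises added 150475 CPM and the called falls gave a change of -73198 CPM. Over all tested genes the median log2 change was -0.02. Scaling to library size alone moved that median to -0.14 and the split to 2355 risen and 4034 fallen genes, so directions of small changes depend on the scaling. The 3 HSD-P4 libraries did not overlap the 3 HSD-Oil libraries for 7014 genes (44.7% of tested genes), 5719 of them called.

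**Figure D1:**
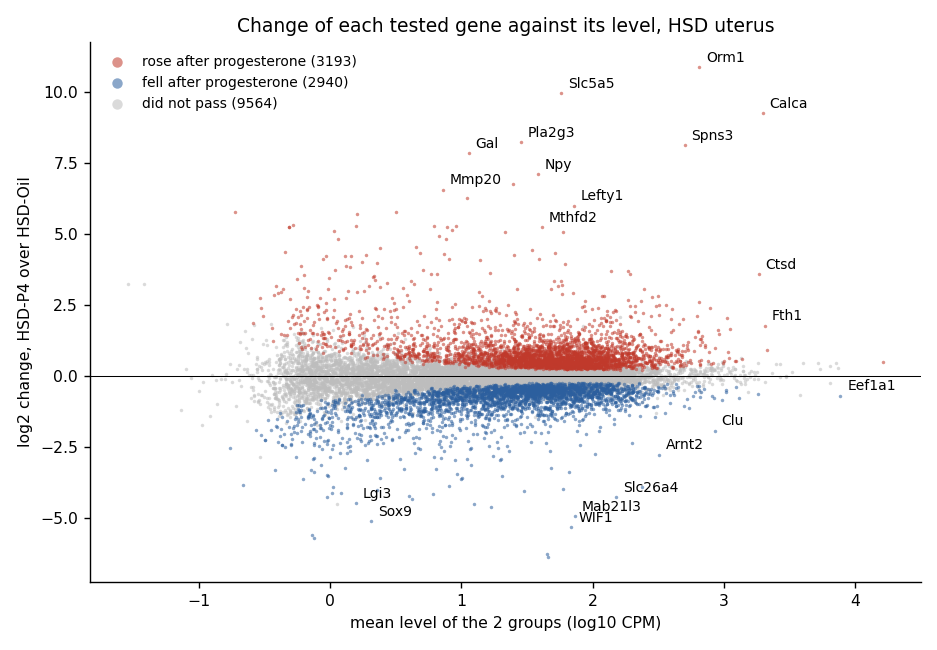
Each point is 1 of the 15697 tested genes, with the mean level of HSD-P4 and HSD-Oil on the x axis (log10 CPM) and the log2 change, HSD-P4 over HSD-Oil, on the y axis. Red points are the 3193 genes that rose and blue points the 2940 that fell; Orm1, Slc5a5 and Calca lie highest, at log2 changes of 10.89, 9.97 and 9.24.

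The largest rises included secreted proteins, peptide hormones, transporters and lipid enzymes that were low in HSD-Oil, and some of these were close to undetected there. Orm1 (chromosome 5, 83293896 to 83297056 in Rnor_5.0), which encodes the acute-phase plasma protein orosomucoid and is a classical glucocorticoid-induced gene of rat liver, had 1353, 1135 and 1412 CPM in HSD-P4 and 0.826, 0.590 and 0.615 CPM in HSD-Oil. The groups lay far apart and the spread within each was small, with a log2 change of 10.89 ± 0.29 (SE, n = 3 per group, edgeR adjusted p = 3.55e-10). Slc5a5, the sodium-iodide symporter, had 114, 114 and 118 CPM in HSD-P4 and 0.155, 0.107 and 0.0559 CPM in HSD-Oil (9.97 ± 0.28, edgeR adjusted p = 3.57e-10). In HSD-Oil it did not exceed the level of 3 reads, which is 0.159 to 0.172 CPM in these libraries, so the size of the change is uncertain although the groups were well separated.

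The Orm1 promoter held the short palindrome shared by progesterone and glucocorticoid receptor elements at 2 places. The sequence below is the RefSeq promoter (GRCr8, chr5:81788259-81788558, plus strand), 250 bases before the start and 50 after; capitals mark ACA and TGT of each ACANNNTGT match, the first at -128 and the second at -44. The motif reads the same on both strands.
Orm1: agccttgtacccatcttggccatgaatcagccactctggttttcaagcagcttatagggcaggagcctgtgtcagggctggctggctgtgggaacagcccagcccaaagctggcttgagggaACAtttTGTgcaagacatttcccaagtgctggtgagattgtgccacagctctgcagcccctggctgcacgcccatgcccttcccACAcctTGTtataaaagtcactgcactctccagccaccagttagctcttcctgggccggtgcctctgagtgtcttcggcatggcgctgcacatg
The same core stood in promoters of further genes that rose, and 4 picked after their values were seen are shown in the same build. They are the protease Mmp20, the iron-carrier binding protein Lcn2, the repressor Nfil3 and Fam107a, each as a short window.
Mmp20 (chr8:13074145-13074173, plus strand): gggagaagaaACAagcTGTgtaattacca
Lcn2 (chr3:36081893-36081921, minus strand): aagtatttcaACAggaTGTgctggcaatt
Nfil3 (chr17:12432244-12432272, plus strand): tgaacctccaACActtTGTtgagctgcat
Fam107a (chr15:19046363-19046391, plus strand): ggtggcttggACAtggTGTtctgagtctc
Among the 10744 tested genes with a RefSeq promoter the core was in 25 of 555 that rose at least 2-fold (4.5%), 30 of 535 that fell at least 2-fold (5.61%) and 434 of all (4.04%). These shares are close to each other, and the promoters of Calca, Slc5a5 and Gal held no match in this window.

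Peptide hormones made up several of the other large rises. Calca, which encodes calcitonin and calcitonin gene-related peptide and is long known as a progesterone-induced gene of rat uterine glands, had 3529, 2656 and 5666 CPM in HSD-P4 and 1.55, 11.7 and 6.32 CPM in HSD-Oil (log2 change 9.24 ± 0.63, edgeR adjusted p = 6.18e-07). Gal, which encodes galanin, had 29.8, 23.7 and 14.3 CPM in HSD-P4 and 0.0516, 0.0537 and 0.168 CPM in HSD-Oil (7.86 ± 0.46, edgeR adjusted p = 1.81e-07), and as its HSD-Oil libraries held at most 3 reads the size is uncertain. Npy, neuropeptide Y, had 109, 49.7 and 69.4 CPM in HSD-P4 and 0.206, 0.697 and 0.727 CPM in HSD-Oil (7.12 ± 0.38), with 24.1% of its reads uniquely placed. The rule that named these 3 genes required that their libraries did not overlap between the groups. Calca had a change of 9.98 without HSD-Oil replicate 2, and Gal of 8.55 without HSD-Oil replicate 3. Lefty1, a secreted inhibitor of nodal signalling, had 101, 213 and 111 CPM in HSD-P4 and 2.48, 2.58 and 1.57 CPM in HSD-Oil (5.998 ± 0.44, edgeR adjusted p = 1.02e-06). Nppc, which encodes C-type natriuretic peptide, had 2.26, 4.40 and 2.77 CPM in HSD-P4, against 0, 0.161 and 0 CPM in HSD-Oil, where its reads were too few for a size (edgeR adjusted p = 0.000127). Of 26 tested genes of secreted peptide hormones 8 rose and 8 fell (5 without HSD-Oil replicate 2), with a median log2 change of 0.16. The shares of all tested genes were 20.3% risen and 18.7% fallen.

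Enzymes and other secreted proteins formed a further group. Pla2g3, a secreted phospholipase A2, had 31.7, 77.7 and 59.5 CPM in HSD-P4 and 0.155, 0.107 and 0.279 CPM in HSD-Oil (log2 change 8.24 ± 0.58, edgeR adjusted p = 7.21e-07). Spns3, a relative of sphingolipid transporters, had 879, 767 and 1357 CPM in HSD-P4 and 3.61, 3.11 and 3.97 CPM in HSD-Oil (8.13 ± 0.31), and 89.8% of its reads lay in introns. Both genes were separated by more than their spread in every library. Scgb1c1, a small secretoglobin, rose by 6.75 ± 0.52 on the log2 scale, with 47.8, 20.5 and 78.2 CPM in HSD-P4 and 0.361, 0.537 and 0.447 CPM in HSD-Oil. Mmp20, a matrix metalloproteinase best known from tooth enamel, had 10.52, 10.3 and 21.8 CPM in HSD-P4 and 0.155, 0 and 0.279 CPM in HSD-Oil (6.56 ± 0.55, or 7.38 without HSD-Oil replicate 3). Lao1, an L-amino acid oxidase, and Gpr165, an orphan receptor, rose by 5.76 and 5.29. The size for Lao1 is uncertain because its HSD-Oil libraries held at most 3 reads. For each, all 3 HSD-P4 libraries stood above all 3 HSD-Oil libraries, which the rule that named them required.

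**Figure D2:**
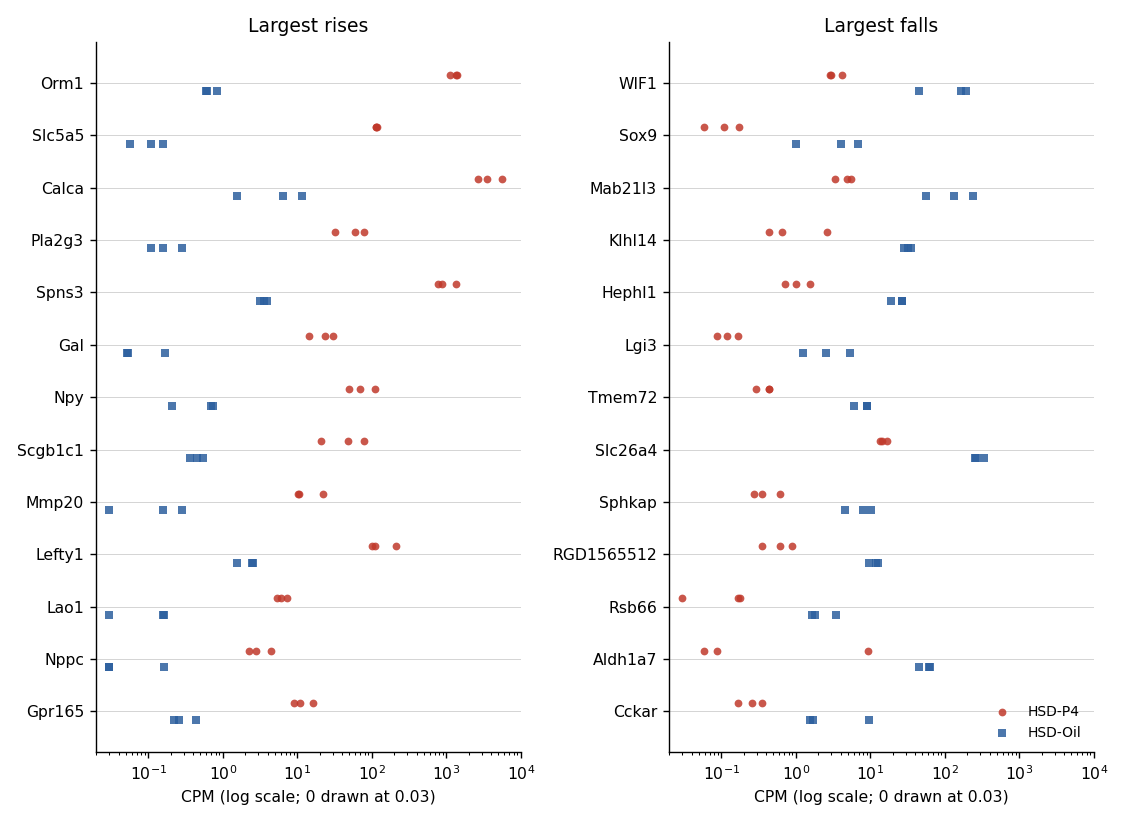
Level of the genes described among the largest rises (left) and falls (right) in each library, in CPM on a log scale with 0 drawn at 0.03; red circles are the 3 HSD-P4 libraries and blue squares the 3 HSD-Oil libraries. No gene overlaps between the groups, which the rule that named them required. Aldh1a7 has 1 HSD-P4 library, at 9.34 CPM, far above the other 2.

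The largest falls included a Wnt inhibitor, an epithelial transcription factor, ion and metal transporters and a retinaldehyde dehydrogenase relative. WIF1, a secreted Wnt inhibitor, had 2.96, 2.86 and 4.12 CPM in HSD-P4 and 193, 45.0 and 164 CPM in HSD-Oil (log2 change -5.33 ± 0.46, edgeR adjusted p = 3.45e-06). Sox9, a transcription factor of gland and progenitor cells, was at or under 3 reads in each HSD-P4 library, with 0.174, 0.110 and 0.0589 CPM in HSD-P4 and 6.91, 1.02 and 4.02 CPM in HSD-Oil (-5.12 ± 0.81, edgeR adjusted p = 0.00035). In both genes, and in Mab21l3 (3.30, 4.89 and 5.48 CPM in HSD-P4 and 238, 55.7 and 134 CPM in HSD-Oil), HSD-Oil replicate 2 was the lowest of the oil libraries, yet above every HSD-P4 library. Mab21l3 had a log2 change of -4.94, which was -4.34 without HSD-Oil replicate 1, and that of Sox9 was then -4.44. Slc26a4, the anion exchanger pendrin, had 14.3, 13.5 and 17.0 CPM in HSD-P4 and 341, 265 and 256 CPM in HSD-Oil (-4.26 ± 0.17, edgeR adjusted p = 8.29e-09). Pendrin and the iodide symporter Slc5a5 are the iodide carriers of the thyroid cell's opposite faces, and here the first fell while the second rose. Hephl1, a copper-dependent ferroxidase, had 1.57, 0.989 and 0.707 CPM in HSD-P4 and 26.6, 18.7 and 26.7 CPM in HSD-Oil (-4.51 ± 0.30). Klhl14 (-4.62, 51.9% of reads uniquely placed), Tmem72 (-4.34), Sphkap (-4.23), RGD1565512 (-4.16), Rsb66 (-4.11) and Cckar, a cholecystokinin receptor (-4.02), fell by similar amounts, as did Lgi3 (-4.48). Rsb66 and Lgi3 were at or under 3 reads in each HSD-P4 library, so the sizes of their falls are uncertain. Without HSD-Oil replicate 2 the change was -2.63 for Cckar and -3.79 for Lgi3, and without HSD-P4 replicate 3 it was -5.81 for Klhl14. Aldh1a7 rested on unequal libraries, with 0.0870, 9.34 and 0.0589 CPM in HSD-P4 and 63.2, 61.4 and 45.3 CPM in HSD-Oil (-4.06 ± 0.95, edgeR adjusted p = 0.00792; -9.49 without HSD-P4 replicate 2 and -3.46 without HSD-P4 replicate 3). A pair of unnamed gene models with no uniquely placed reads also met the rule, but HSD-Oil replicate 3 alone held 268 and 261 CPM, against at most 2.47 CPM in any other HSD library.

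In reads gained, lysosomal, iron-storage, antioxidant and folding proteins led beside Orm1, Calca and Spns3. The 12 genes with the largest gains held 19143 CPM of the summed gain. Ctsd, the lysosomal protease cathepsin D (chromosome 1, 222436922 to 222448798 in Rnor_5.0), had 3453, 3388 and 3399 CPM in HSD-P4 and 279.8, 289 and 280.4 CPM in HSD-Oil (log2 change 3.59 ± 0.14, edgeR adjusted p = 8.29e-09), a 12.1-fold rise that was nearly equal in every library. Prdx6, a peroxiredoxin with phospholipase activity, had 1029, 1018 and 1281 CPM in HSD-P4 and 185, 178 and 188 CPM in HSD-Oil (2.59 ± 0.16). Fth1, the ferritin heavy chain, had 2957, 3072 and 3562 CPM in HSD-P4 and 862, 1010.0 and 937 CPM in HSD-Oil (1.77 ± 0.13), and with 59.4% of its reads uniquely placed some may belong to its processed copies. Tmsb4x, which encodes an actin-binding peptide, was less even, at 2227, 1883 and 4266 CPM in HSD-P4 and 1255, 1681 and 1496 CPM in HSD-Oil (0.92 ± 0.26, edgeR adjusted p = 0.0128), and its call was lost without HSD-Oil replicate 1 (0.83).

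The largest losses of reads included 3 translation factors, a secreted chaperone, a bHLH-PAS transcription factor and a carrier of Wnt ligands. Eef1a1, the elongation factor that brings aminoacyl-tRNA to the ribosome, had 5378, 6324 and 6018 CPM in HSD-P4 and 10364, 9479.6 and 8831 CPM in HSD-Oil (log2 change -0.69 ± 0.14, edgeR adjusted p = 0.00175), with 35.0% of its reads uniquely placed. Eef2, the translocation factor, fell by 0.65 ± 0.18 on the log2 scale, a call lost without HSD-Oil replicate 1 (-0.52), and Pabpc1, which binds poly(A) tails, fell by 0.79 ± 0.15. All 3 are encoded by messages of the class whose translation follows nutrient signals, as are the ribosomal proteins described further on. Clu, which encodes the secreted chaperone clusterin, had 421, 366 and 281 CPM in HSD-P4 and 1337, 1369 and 1343 CPM in HSD-Oil (-1.92 ± 0.13, edgeR adjusted p = 6.98e-07). Arnt2, a dimer partner of bHLH-PAS transcription factors, had 77.3, 87.0 and 82.5 CPM in HSD-P4 and 616, 500.2 and 567 CPM in HSD-Oil (-2.77 ± 0.11, edgeR adjusted p = 1.39e-08). Wls, which carries Wnt ligands to the cell surface, fell to 322, 314 and 382 CPM in HSD-P4, against 730.2, 688 and 815 CPM in HSD-Oil (-1.13 ± 0.11). Txnip, an inhibitor of thioredoxin, fell by 0.70, Itm2b fell by 0.85, the lipoprotein receptor Lrp1 fell by 1.07 and the splicing scaffold Srrm2 fell by 0.77.

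Genes of the secretory pathway rose together, from folding in the endoplasmic reticulum to transport out of it. Of 38 tested chaperones and folding enzymes of the endoplasmic reticulum 32 rose and 1 fell, with a median log2 change of 0.88, beside 20.3% risen and a median of -0.02 over all genes. Hspa5, the main chaperone of this compartment, had 1509, 1294 and 1165 CPM in HSD-P4 and 237, 245 and 273 CPM in HSD-Oil (2.39 ± 0.15, edgeR adjusted p = 2.73e-07). Hsp90b1 had 1834, 1444 and 1787 CPM in HSD-P4 and 389, 414 and 436 CPM in HSD-Oil (2.03 ± 0.14). Both stood 3-fold or more above oil in every library. Sdf2l1, a cofactor of Hspa5, rose by 3.08 ± 0.25, the disulfide isomerase Creld2 by 2.37 ± 0.14, the prolyl isomerase Fkbp11 by 2.33 ± 0.21 and the lectin chaperone Calr by 1.62 ± 0.17.

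Several of these promoters carry the endoplasmic reticulum stress element, CCAAT and CCACG separated by 9 bases, which is bound by the factors of the unfolded protein response. It was searched on both strands, where the reverse reads CGTGG and ATTGG, and it was chosen after the values of these genes were seen. It was in 7 of the 30 listed genes with a RefSeq promoter (23.3%), 7 of 555 genes that rose at least 2-fold (1.26%), 0 of 535 that fell at least 2-fold and 16 of 10744 tested genes (0.149%). The matches are printed with the element's ends in capitals, from GRCr8, on the strand of each gene.
Hspa5 (chr3:38452968-38452996, plus strand): gttcaCCAATcggaggcctCCACGacggg
Creld2 (chr7:121789234-121789262, plus strand): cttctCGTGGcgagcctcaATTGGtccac
Hsp90b1 (chr7:23012446-23012474, minus strand): caaacCCAATcgaaaggagCCACGcttcg
Calr (chr19:40213130-40213158, plus strand): caacgCGTGGtcgaccctgATTGGcccag
Dnajc3 (chr15:102432529-102432557, plus strand): caaagCCAATcagcgccaaCCACGaccca
Canx (chr10:35158064-35158092, minus strand): cttgtCCAATcatcacgctCCACGaagaa
XBP1 (chr14:84604553-84604581, plus strand): acaggCCAATcgcagacggCCACGaccct
Hsp90b1 held 2 matches, at -176 and -72 bases from the start, of which the first is shown. A match is a description of the letters, not of binding.

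Entry into the endoplasmic reticulum and export from it behaved alike. Of 48 tested genes of the translocon, signal recognition and coat proteins 39 rose and none fell (median log2 change 0.82). The translocon subunit Sec61b had 108, 122 and 178 CPM in HSD-P4 and 34.7, 51.1 and 36.2 CPM in HSD-Oil (1.74 ± 0.22, edgeR adjusted p = 6.89e-05). The channel subunit Sec61a1 rose by 1.37 ± 0.13, Sec61g by 1.51 ± 0.28, and the coat protein SEC23B by 1.54 ± 0.10. Of 38 genes of N-glycan synthesis 22 rose and none fell (median 0.51), among them the sugar-nucleotide enzymes Gmppb (1.76 ± 0.11) and Pgm3 (1.53 ± 0.16) and the oligosaccharyltransferase subunit Ostc (1.48 ± 0.16). Of 26 mucins and enzymes of O-glycans 6 rose and 7 fell (median -0.02), beside 20.3% risen and 18.7% fallen among all tested genes. Muc1, the cell-surface mucin of the uterine epithelium, had 3.91, 3.19 and 2.71 CPM in HSD-P4 and 55.4, 18.3 and 37.9 CPM in HSD-Oil (-3.52 ± 0.34, edgeR adjusted p = 8.90e-06). Muc20 fell by 2.72 ± 0.26 and Chst4, a sulfotransferase that makes ligands of L-selectin, fell by 2.97 ± 0.24.

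**Figure D3:**
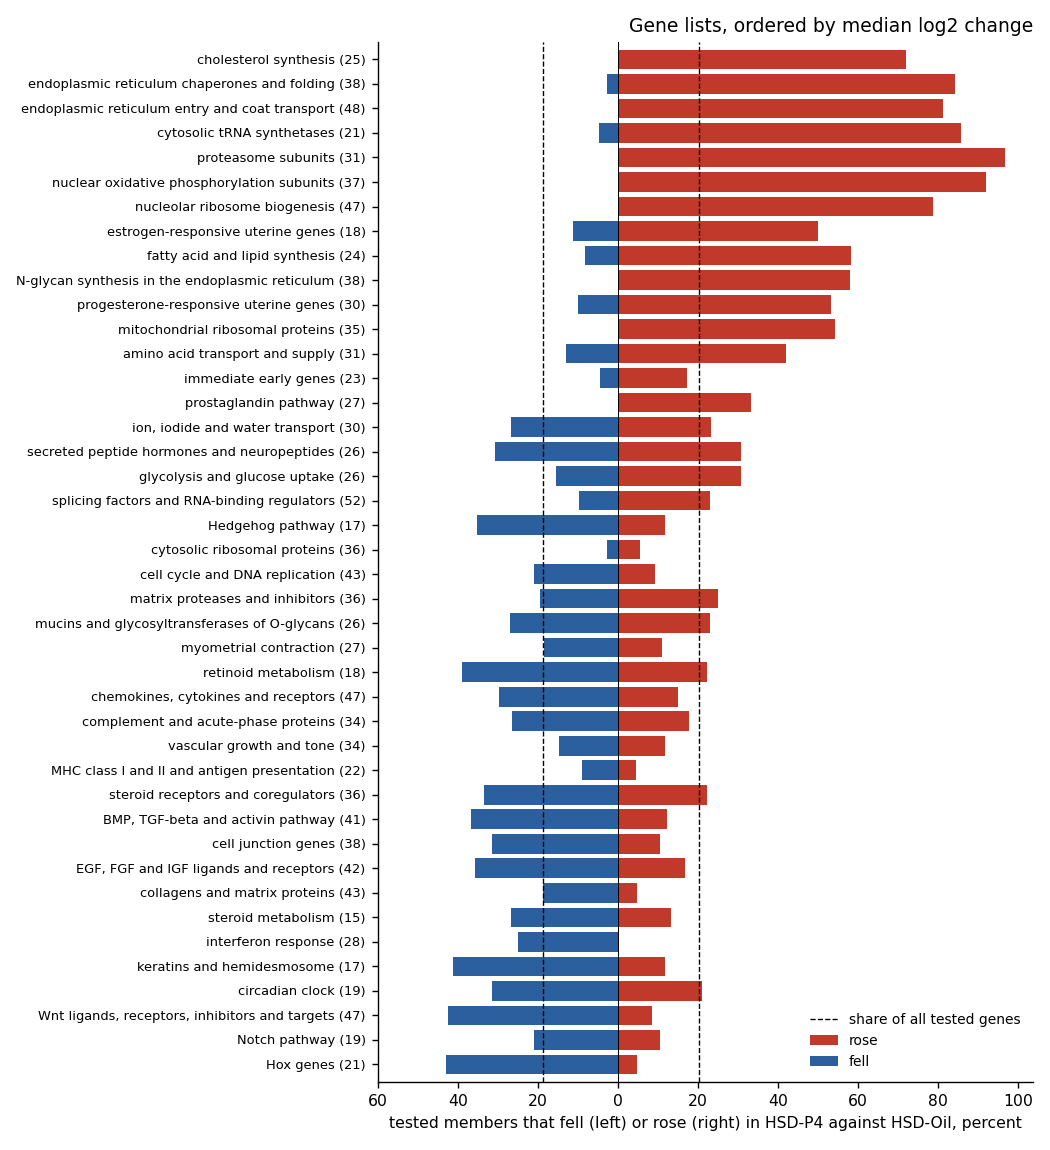
Percent of the tested members of each gene list that rose (red, to the right) or fell (blue, to the left) in HSD-P4 against HSD-Oil, ordered by median log2 change, with the number of tested members in brackets; dashed lines mark the 20.3% and 18.7% of all tested genes that rose and fell. Proteasome subunits, oxidative phosphorylation subunits and cytosolic tRNA synthetases have the longest red bars, and Hox and Wnt genes the longest blue ones.

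Lipid synthesis rose with the secretory genes. Of 25 cholesterol synthesis genes 18 rose and none fell (median log2 change 0.89). Idi1, isopentenyl diphosphate isomerase, had 338, 199 and 505 CPM in HSD-P4 and 23.7, 30.4 and 25.3 CPM in HSD-Oil (3.71 ± 0.31, edgeR adjusted p = 2.85e-06). The groups were wide apart for Idi1, and Fdps, farnesyl diphosphate synthase, had 256, 210.1 and 214 CPM in HSD-P4 and 83.4, 77.3 and 78.4 CPM in HSD-Oil (1.51 ± 0.10). Of 24 genes of fatty acid and lipid synthesis 14 rose and 2 fell (median 0.57). Scd, the stearoyl-CoA desaturase, had 1772, 1849 and 1413 CPM in HSD-P4 and 548, 546 and 519 CPM in HSD-Oil (1.64 ± 0.12), and Acsl4, which activates arachidonic acid, rose by 2.21 ± 0.21.

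Genes that supply amino acids and charge tRNAs rose as well, beside 20.3% risen and 18.7% fallen among all tested genes. Mthfd2, a mitochondrial enzyme of one-carbon metabolism, had 66.4, 69.3 and 104 CPM in HSD-P4 and 2.01, 2.79 and 1.45 CPM in HSD-Oil (log2 change 5.25 ± 0.35, edgeR adjusted p = 5.00e-07). The cystine carrier Slc7a11 rose by 3.05 ± 0.35 and the proline enzyme Pycr1 by 2.45 ± 0.33. Psat1, of serine synthesis, had 130.0, 117 and 127 CPM in HSD-P4 and 17.2, 16.9 and 14.9 CPM in HSD-Oil (2.93 ± 0.15). These 4 are the most changed of 31 tested genes in this list, of which 13 rose and 4 fell (7 without HSD-P4 replicate 3; median 0.39). Of 21 cytosolic tRNA synthetases 18 rose and 1 fell (median 0.79), led by Eprs, for glutamate and proline (1.63 ± 0.11), and Tars, for threonine (1.31 ± 0.09). Of 26 glycolysis genes 8 rose and 4 fell (7 without HSD-P4 replicate 2; median 0.16): Pgk1 rose by 2.08 ± 0.10, while Aldoc fell by 1.89 ± 0.14 and Pdk4, which holds pyruvate back from the mitochondrion, fell by 1.68 ± 0.26.

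Nuclear genes of the mitochondrion rose, those of the respiratory chain in nearly every case. Of 37 nuclear-encoded subunits of oxidative phosphorylation 34 rose and none fell (median log2 change 0.75), and of 35 mitochondrial ribosomal proteins 19 rose and none fell (median 0.41). Cycs, cytochrome c, had 409, 261 and 549 CPM in HSD-P4 and 56.2, 71.6 and 67.1 CPM in HSD-Oil (2.65 ± 0.23, edgeR adjusted p = 3.69e-06), with 76.0% of reads uniquely placed. Cox7b, a subunit of cytochrome oxidase, rose by 1.23 ± 0.22, Atp5g1, of the ATP synthase ring, by 1.21 ± 0.14, and Mrpl12 by 1.17 ± 0.11. Reads from the mitochondrial genome took 7.83, 5.04 and 6.61% of all reads in HSD-P4 and 5.21, 5.12 and 5.84% in HSD-Oil, and these overlap.

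The machinery that assembles ribosomes rose, while the ribosomal proteins themselves hardly moved in total reads. Of 47 nucleolar ribosome biogenesis genes 37 rose and none fell (median log2 change 0.68). Nop56, a box C/D nucleolar protein, had 259, 213 and 176 CPM in HSD-P4 and 85.3, 87.0 and 86.9 CPM in HSD-Oil (1.32 ± 0.13, edgeR adjusted p = 1.14e-05), and Rrp12 (1.65 ± 0.23) and Bysl (1.46 ± 0.16) rose by similar amounts. Of 36 cytosolic ribosomal proteins 2 rose (7 without HSD-P4 replicate 2, 4 without HSD-Oil replicate 2 and 1 without HSD-Oil replicate 1 or 3 or HSD-P4 replicate 3) and 1 fell, and the median was 0.08; it was -0.04 with scaling to library size alone and -0.05 without HSD-P4 replicate 3. Rps14 (0.71 ± 0.14) and Rps2 (0.46 ± 0.17) rose but had 14.96% and 9.1% of reads uniquely placed, so near-identical copies may share them. Rps16 had 985, 1110.0 and 1157 CPM in HSD-P4 and 1335, 1627 and 1284 CPM in HSD-Oil (-0.38 ± 0.14, edgeR adjusted p = 0.0427), a narrow gap. The call of Rps16 was lost in 4 of the 6 fits that left out 1 HSD library, and so was that of Rps2.

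Proteasome subunits, which build the particle that degrades ubiquitin-tagged proteins, moved as a block. Of 31 tested subunits 30 rose and none fell, with a median log2 change of 0.77 and a range of 0.31 to 1.25. Psmd14, the deubiquitinase of the lid, had 87.9, 77.8 and 127 CPM in HSD-P4 and 39.3, 44.3 and 39.2 CPM in HSD-Oil (1.25 ± 0.16, edgeR adjusted p = 7.54e-05). The base ATPase Psmc5 had 145, 139.6 and 129.7 CPM in HSD-P4 and 58.9, 70.0 and 65.7 CPM in HSD-Oil (1.09 ± 0.10), and the core subunit Psmb2 rose by 0.99 ± 0.09. The rises are modest and even, and between 28 and 30 subunits rose when any HSD library was left out. Splicing factors were closer to the background, with 12 of 52 risen and 5 fallen (3 without HSD-Oil replicate 1; median 0.13): Snrpd1, a core protein of the splicing particles, rose by 1.46 ± 0.18, and the cold-inducible RNA-binding protein Cirbp fell by 0.86 ± 0.12.

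Reads in exons come mostly from finished messages and reads in introns mostly from unspliced ones, so the deposited exon and intron counts were set against each other. Each class was scaled on its own, and scaled reads here are CPM within that class after TMM scaling. Of 14358 genes tested on exon reads 5581 were called (38.9%), and of 13523 tested on intron reads 3661 (27.1%). Introns took 21.1, 19.96 and 23.0% of gene reads in HSD-P4 and 21.6, 25.7 and 23.6% in HSD-Oil. A test of the difference between the exon change and the intron change, with a term for each animal, was possible for 12548 genes and called 1171 of them (9.33%). In 622 the exon change lay above the intron change (4.96%) and in 549 the intron change lay above the exon change (4.38%). Of 2693 genes called on exon reads and not on intron reads the difference itself was called in 553, and of 959 called on intron reads and not on exon reads in 249. In 88.9% of these genes the annotation has at most 1 transcript, so intron reads can include exons it lacks. Whether counting used strand is not given in the sources used here, so reads of genes that overlap on opposite strands cannot be told apart.

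Cytosolic ribosomal proteins changed little in exon reads and were higher in intron reads after progesterone. Over 32 members tested in both classes the median log2 change was 0.06 in exon reads and 0.95 in intron reads. The difference was called in 23 of the 32, all with the intron change above (median difference -0.88, beside -0.02 over all genes), and it was negative in 31. Rpl3, of the large subunit, had 355, 398 and 414 scaled intron reads in HSD-P4 and 181, 167 and 152 in HSD-Oil, a log2 change of 1.22. Its scaled exon reads were 1364, 1765 and 1784 in HSD-P4 and 2044, 2123 and 1807 in HSD-Oil, which did not pass the test (-0.29). Rps23 showed the same shape, with a log2 change of 0.00 in exon reads and 1.40 in intron reads. The call was made in 18 to 26 of the 32 when any HSD library was left out, in 20 with 1 common scaling for both classes, and in 18 of 27 on uniquely placed reads, an alternative added after the data were seen. In BN rats, whose libraries are separate, 13 of the 32 were called with the intron change above (median difference -0.68). The same call was made in 0.893% of all genes there, and 1.88% were called in either direction.

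A total of 19 genes were called lower in exon reads and higher in intron reads, among them the elongation factors Eef2 and Eef1a1. Eef2 had 1805, 2336 and 1755 scaled exon reads in HSD-P4 and 3643, 2984 and 2928 in HSD-Oil (log2 change -0.70 ± 0.17, edgeR adjusted p = 0.00572). Its scaled intron reads were 121, 139 and 105 in HSD-P4 and 62.8, 66.0 and 66.9 in HSD-Oil (0.90 ± 0.14, edgeR adjusted p = 0.000181). No library of the groups overlapped in either class, and the exon-minus-intron difference was -1.59 ± 0.17 (edgeR adjusted p = 9.65e-06). Eef1a1 had an exon change of -0.72 and an intron change of 0.58, Rps16 of -0.43 and 0.87, and the initiation factor subunit Eif3h of -0.32 and 0.39. Opposite calls the other way were made in 6 genes, Iqgap2, Atp6v1e1, Mrpl37, Psma4, Slc28a3 and Bak1. Psma4, a core proteasome subunit, had an exon change of 0.95 and an intron change of -0.46.

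In 30 proteasome subunits the median log2 change was 0.84 in exon reads and 0.29 in intron reads; the exon change lay above the intron change in all 30 and the difference was called in 15, with none called the other way. In 35 oxidative phosphorylation subunits the medians were 0.80 in exon reads and 0.33 in intron reads, and 13 were called with the exon change above. These counts rest partly on single libraries: without HSD-Oil replicate 1 they were 7 and 5, without HSD-P4 replicate 3 they were 9 and 8, and without HSD-P4 replicate 1 the second was 6. In BN rats the same call was made in 0 of the 30 proteasome subunits and 3 of the 35 oxidative phosphorylation subunits, beside 0.988% of all genes. In 43 collagens and matrix proteins the medians were -0.32 in exon reads and 0.30 in intron reads, and 14 were called with the intron change above. That count was 6 with a common scaling and 9 (without HSD-Oil replicate 1) to 18 with a library left out, and the exon level of the list was lowest in HSD-P4 replicate 3.

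**Figure D4:**
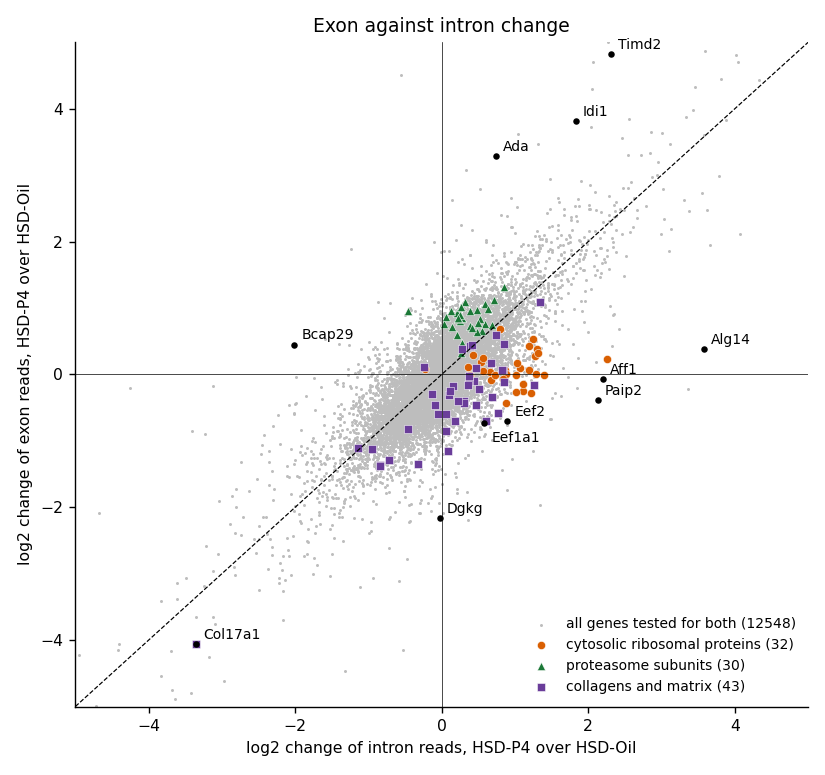
Log2 change of intron reads (x axis) and of exon reads (y axis), HSD-P4 over HSD-Oil, for 12548 genes tested in both classes, of which 29 lie outside the axes; the dashed line marks equal change. Cytosolic ribosomal proteins (orange circles) lie to the right of the line in 31 of 32 cases, proteasome subunits (green triangles) to its left, and collagens and matrix proteins (purple squares) mostly to its right.

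**Figure D5:**
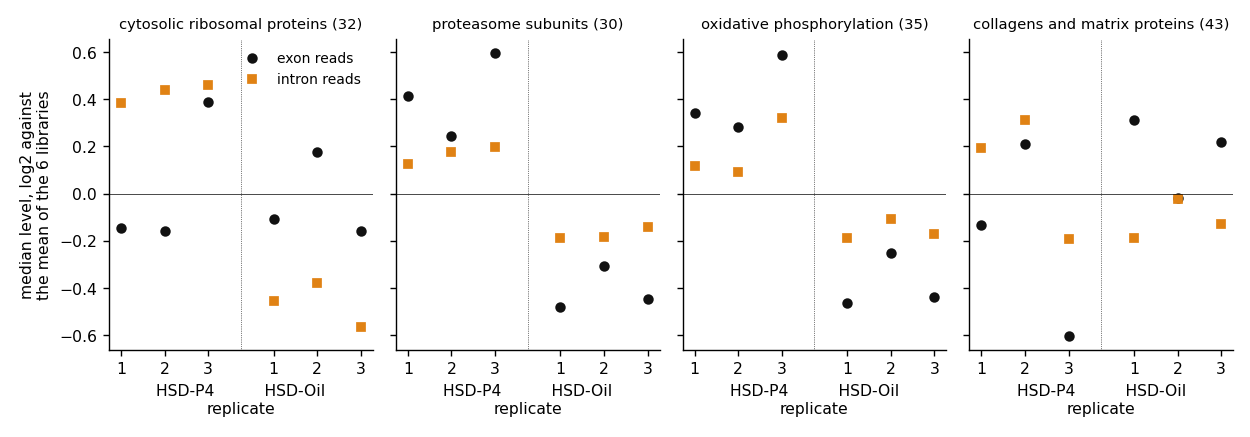
Median level of 4 gene lists in each library, as log2 against the mean of the 6 HSD libraries, for exon reads (black circles) and intron reads (orange squares), with the number of genes in brackets. Ribosomal protein introns lie at 0.39 to 0.46 in HSD-P4 and -0.57 to -0.38 in HSD-Oil, while their exons overlap between the groups; matrix protein exons span -0.60 to 0.21 in HSD-P4.

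Per library, ribosomal protein exons had a median of -0.15, -0.16 and 0.39 in HSD-P4 and -0.11, 0.18 and -0.16 in HSD-Oil, so HSD-P4 replicate 3 stood above the rest. Their introns had 0.39, 0.44 and 0.46 in HSD-P4 and -0.45, -0.38 and -0.57 in HSD-Oil. The groups were apart in introns and mixed in exons.

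Among single genes the widest gaps ran in both directions. Ada, adenosine deaminase, had 246, 366 and 186 scaled exon reads in HSD-P4 and 32.9, 26.3 and 22.1 in HSD-Oil, a log2 change of 3.29, against 0.74 in introns (difference 2.50 ± 0.28, edgeR adjusted p = 9.66e-05). Timd2, a receptor for ferritin in rodents, had changes of 4.83 in exons and 2.31 in introns, and Idi1 of 3.82 and 1.83, although the call of the difference for Idi1 was lost in each fit that left out 1 HSD library. Bcap29, of the endoplasmic reticulum, and Cox10, of heme A synthesis, differed through their introns, which fell by 2.01 and 1.99 on the log2 scale while exon reads did not pass the test (0.45 and -0.04). Alb and Scgb1c1 also met the rule, but both calls were lost without HSD-Oil replicate 3, and the difference of 2.89 for Alb was 1.12 without HSD-P4 replicate 3. On the other side, Spns3 rose by 6.57 in exons and 8.54 in introns (difference -1.98 ± 0.34), and Igsf11, an adhesion protein, had changes of -0.68 and 1.48. Aff1, of a transcription elongation complex, and Map3k4 had intron rises of 2.20 and 1.63 with exon changes of -0.07 and -0.33 that did not pass. Dgkg, a diacylglycerol kinase, fell by 2.16 in exons and had an intron change of -0.03. Alg14 (difference -3.10), Paip2 (-2.54) and Timd2 overlap other gene models. For Paip2 that gene is Slc23a1, a vitamin C carrier on the other strand, which itself rose by 1.95 ± 0.20 on the log2 scale. Calca, with 69.9% of its reads in introns, changed equally in both classes (9.29 in exons and 9.31 in introns).

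Many known steroid targets rose, beside 20.3% risen and 18.7% fallen among all tested genes. Of 30 tested progesterone-responsive uterine genes 16 rose and 3 fell (median log2 change 0.50). Fkbp5, a cochaperone of steroid receptors, had 104, 89.5 and 116 CPM in HSD-P4 and 16.05, 13.5 and 12.7 CPM in HSD-Oil (2.87 ± 0.13), Hsd11b2, which inactivates corticosterone, rose by 2.64 ± 0.15, and Cyp26a1, which degrades retinoic acid, by 3.09 ± 0.58. The size for Cyp26a1 is uncertain because its HSD-Oil libraries held at most 3 reads (0.103, 0.161 and 0.112 CPM). Of 18 genes known from estrogen action 9 also rose and 2 fell (median 0.61). Lcn2, lipocalin 2, had 53.1, 47.2 and 120.3 CPM in HSD-P4 and 5.16, 4.51 and 3.13 CPM in HSD-Oil (4.10 ± 0.66, edgeR adjusted p = 0.000435). Igf1, the growth factor of the uterine stroma, had 222, 140.0 and 282 CPM in HSD-P4 and 28.8, 33.2 and 30.5 CPM in HSD-Oil (2.80 ± 0.22, edgeR adjusted p = 1.93e-06). Of 36 steroid receptors and coregulators 8 rose and 12 fell (median -0.22), a number risen near the share of all genes. Foxa2, the gland transcription factor, had 10.6, 12.1 and 10.7 CPM in HSD-P4 and 37.8, 25.6 and 35.8 CPM in HSD-Oil (-1.56 ± 0.16), and Nr4a3 rose by 1.71 ± 0.49, a call that was lost without HSD-P4 replicate 2 (0.63).

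Of 47 Wnt genes 4 rose and 20 fell (median log2 change -0.43), beside 20.3% risen and 18.7% fallen among all tested genes. Beside WIF1 and Wls these included the ligand Wnt7a of the uterine epithelium, with 28.96, 24.8 and 20.9 CPM in HSD-P4 and 166, 97.8 and 142 CPM in HSD-Oil (-2.44 ± 0.19, edgeR adjusted p = 1.76e-06), the stromal ligand Wnt2 (-1.80 ± 0.26) and the inhibitor Sfrp5 (-2.17 ± 0.31). Of 41 BMP, TGF-beta and activin genes 5 rose and 15 fell (median -0.22), with 7 fallen without HSD-Oil replicate 1, 9 without HSD-P4 replicate 1 and 8 without HSD-P4 replicate 3; Inhbb, an activin subunit, fell by 1.74 ± 0.25 while Fst, the activin antagonist, had 8.26, 9.07 and 10.7 CPM in HSD-P4 and 2.73, 2.52 and 3.52 CPM in HSD-Oil (1.68 ± 0.22). Of 42 EGF, FGF and IGF genes 7 rose and 15 fell (median -0.27), and Irs2, an adaptor of the insulin and IGF receptors, fell by 1.55 ± 0.28. Of 17 Hedgehog genes 2 rose (1 without HSD-Oil replicate 3 or HSD-P4 replicate 1) and 6 fell. Their median of 0.09 was -0.03 with scaling to library size alone. With 1 HSD library left out it ran from -0.34 (without HSD-P4 replicate 2) to 0.28 (without HSD-P4 replicate 3). In BN rats 4 of these 17 genes rose and none fell, with no share of all genes called in BN given here to compare. The Hedgehog transcription factor Gli2 fell by 0.80 ± 0.17. Notch genes gave 2 risen and 4 fallen of 19 (median -0.43), a number fallen near the share of all genes. The number of Notch genes fallen was 0 without HSD-Oil replicate 1, 2 without HSD-Oil replicate 3, 1 without HSD-P4 replicate 1 or 3 and 9 without HSD-P4 replicate 2.

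Hox genes, which pattern the reproductive tract, fell in 9 of 21 cases and rose in 1 (median log2 change -0.49). The shares of all tested genes were 18.7% fallen and 20.3% risen. The 4 most changed all belong to the Hoxb cluster. Hoxb5 had 7.48, 8.24 and 6.07 CPM in HSD-P4 and 20.9, 17.1 and 18.6 CPM in HSD-Oil (-1.38 ± 0.16, edgeR adjusted p = 4.21e-05). Hoxb8 fell by 1.34 ± 0.29, HOXB3 fell by 1.19 ± 0.17 and Hoxb6 fell by 0.98 ± 0.13. These genes neighbour each other, and reads cannot be assigned by strand here.

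Of 19 clock genes 4 rose and 6 fell (median log2 change -0.43), beside 20.3% and 18.7% of all tested genes, and 4 of the called ones are given here. Nr1d1, the repressor REV-ERB alpha, had 22.1, 36.2 and 22.9 CPM in HSD-P4 and 259, 148 and 142 CPM in HSD-Oil (-2.75 ± 0.31, edgeR adjusted p = 2.93e-05). Dbp, an output activator, had 54.3, 63.5 and 75.7 CPM in HSD-P4 and 393, 340.3 and 273 CPM in HSD-Oil (-2.38 ± 0.20). ARNTL, the core activator BMAL1, had 36.1, 36.1 and 22.3 CPM in HSD-P4 and 9.60, 13.2 and 11.8 CPM in HSD-Oil (1.44 ± 0.19). Nfil3, the repressor that competes with Dbp for its sites, had 23.4, 36.2 and 16.4 CPM in HSD-P4 and 4.33, 4.40 and 5.65 CPM in HSD-Oil (2.40 ± 0.26). The groups did not overlap in these 4 genes. The labels give the interval after injection but no clock hour of collection.

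Of 43 cell cycle and replication genes 4 rose and 9 fell, beside 20.3% risen and 18.7% fallen among all tested genes. The number fallen was near its share. The number risen was 8 without HSD-Oil replicate 3, and 2 without HSD-Oil replicate 2, HSD-P4 replicate 1 or HSD-P4 replicate 2. Their median log2 change was 0.07, or -0.06 with scaling to library size alone. Cdkn1b, an inhibitor of cyclin-dependent kinases, had 136, 131 and 162 CPM in HSD-P4 and 234, 242 and 274 CPM in HSD-Oil (-0.80 ± 0.11, edgeR adjusted p = 9.27e-05). Of 23 immediate early genes 4 rose and 1 fell; 1 rose without HSD-Oil replicate 1, HSD-Oil replicate 2 or HSD-P4 replicate 2, and 2 without HSD-P4 replicate 1. Myc rose by 0.96 ± 0.23. Fos (1.34 ± 0.48, edgeR adjusted p = 0.0402) and Atf3 (1.63 ± 0.59, edgeR adjusted p = 0.0421) passed narrowly. The call of Fos was lost in each fit that left out 1 HSD library, and that of Atf3 (0.58 without it) rested on HSD-P4 replicate 2, with 11.7, 36.5 and 5.83 CPM in HSD-P4 and 4.39, 3.54 and 9.67 CPM in HSD-Oil.

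Several genes that anchor epithelial cells to each other and to their base fell, where 20.3% of all tested genes rose and 18.7% fell. Of 17 keratin and hemidesmosome genes 2 rose (4 without HSD-P4 replicate 1, and 1 without HSD-Oil replicate 2 or 3 or HSD-P4 replicate 2) and 7 fell (median log2 change -0.41), and of 38 cell junction genes 4 rose and 12 fell (6 without HSD-Oil replicate 1; median -0.26). Col17a1, the transmembrane collagen of hemidesmosomes, had 6.43, 11.7 and 3.12 CPM in HSD-P4 and 156, 45.0 and 137 CPM in HSD-Oil (-3.98 ± 0.47, edgeR adjusted p = 3.79e-05; -4.59 without HSD-P4 replicate 2). The laminin chain Lama3 had 27.1, 27.0 and 26.3 CPM in HSD-P4 and 78.3, 53.3 and 71.1 CPM in HSD-Oil (-1.33 ± 0.13), and plakoglobin, encoded by Jup, fell by 1.34 ± 0.37. Summed epithelial markers overlapped between the groups, as given above. Krt15 was called as higher, yet 1 library carried it, with 0.174, 33.5 and 2.47 CPM in HSD-P4 and 2.79, 0.0537 and 0.168 CPM in HSD-Oil, and its log2 change of 3.58 was 0.49 without HSD-P4 replicate 2. Of 43 collagens and matrix proteins 2 rose and 8 fell (13 without HSD-P4 replicate 2), and the median of -0.27 was -0.03 without HSD-P4 replicate 3.

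Of 36 matrix proteases and inhibitors 9 rose and 7 fell (11 without HSD-P4 replicate 2; median log2 change -0.01), near the 20.3% risen and 18.7% fallen among all tested genes. Mmp7, matrilysin, had 33.7, 30.8 and 61.2 CPM in HSD-P4 and 0.464, 2.74 and 0.559 CPM in HSD-Oil (5.06 ± 0.61, edgeR adjusted p = 4.55e-05; 6.34 without HSD-Oil replicate 2). With Ctsd and Mmp20 it led the rises, and the inhibitor Timp4 fell by 1.94 ± 0.46. Of 27 prostaglandin genes 9 rose and none fell (median 0.30). Ptgs1, the constitutive cyclooxygenase, had 229, 239.8 and 251 CPM in HSD-P4 and 93.5, 81.3 and 103 CPM in HSD-Oil (1.38 ± 0.12), and Akr1b1, a prostaglandin F synthase, had 477, 515 and 582 CPM in HSD-P4 and 117, 127 and 110.4 CPM in HSD-Oil (2.15 ± 0.15). Both were nearly equal within each group. Of 18 retinoid genes 4 rose and 7 fell (median -0.05); the synthesis enzymes Dhrs9 (-2.85 ± 0.63) and Aldh1a3 (-1.31 ± 0.34, or -2.07 without HSD-P4 replicate 2) fell and the degrading enzyme Cyp26a1 rose. Of 15 steroid metabolism genes 2 rose and 4 fell (median -0.28), and steroid sulfatase, Sts, fell by 1.42 ± 0.24. Of 30 genes of ion, iodide and water transport 7 rose and 8 fell (median 0.20), and Scnn1g, a subunit of the epithelial sodium channel, fell by 2.36 ± 0.37.

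Of 27 myometrial contraction genes 3 rose and 5 fell, with a median log2 change of -0.04, where 39.1% of all tested genes were called in either direction. The number risen was 6 without HSD-P4 replicate 3 and 1 without HSD-Oil replicate 2 or HSD-P4 replicate 1, and the number fallen was 3 without HSD-Oil replicate 1. Pde5a, which degrades cyclic GMP, had 39.3, 42.0 and 44.6 CPM in HSD-P4 and 82.7, 65.0 and 70.5 CPM in HSD-Oil (-0.79 ± 0.11). Of 34 vascular genes 4 rose and 5 fell (median -0.14); 2 rose without HSD-Oil replicate 1 or 3 or HSD-P4 replicate 1, while 3 fell without HSD-Oil replicate 1 and 10 without HSD-P4 replicate 2. Apln, the vessel peptide apelin, rose by 2.35 ± 0.32 from a low level, with 5.13, 4.34 and 3.48 CPM in HSD-P4 and 0.877, 1.02 and 0.615 CPM in HSD-Oil.

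Of 47 chemokine, cytokine and receptor genes 7 rose and 14 fell (median log2 change -0.05), with 8 fallen without HSD-Oil replicate 1 or HSD-P4 replicate 3 and 9 without HSD-Oil replicate 3. Among all tested genes 20.3% rose and 18.7% fell. Il17rb, the receptor of interleukin 25, had 110.0, 60.5 and 124 CPM in HSD-P4 and 8.41, 13.6 and 10.96 CPM in HSD-Oil (3.16 ± 0.25, edgeR adjusted p = 1.93e-06), and Tnfrsf12a, the receptor of TWEAK, rose by 2.30 ± 0.30. Of 34 complement and acute-phase genes 6 rose and 9 fell (median -0.10). Pigr, which carries IgA across the epithelium, had 13.4, 12.04 and 9.78 CPM in HSD-P4 and 162, 79.2 and 121 CPM in HSD-Oil (-3.37 ± 0.28), and the lipopolysaccharide-binding protein Lbp fell by 2.83 ± 0.24, opposite to Orm1 in the same list. Of 28 interferon response genes none rose and 7 fell (median -0.30), with 4 fallen without HSD-Oil replicate 1 or 2 and 11 without HSD-Oil replicate 3. The list was led by Oas2, with 7.91, 6.38 and 6.13 CPM in HSD-P4 and 30.1, 26.0 and 23.8 CPM in HSD-Oil (-1.98 ± 0.15). In BN rats 22 of the 28 fell and 1 rose, and the share of all genes called in BN is not given here. The difference between the strains was tested gene by gene and was called for 8 genes (0.051% of tested genes), of which the interferon list held none. Of 22 antigen presentation genes 1 rose and 2 fell (6 without HSD-P4 replicate 2; median -0.18).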

How the data were processed

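The authors deposited, for each library, a table of read counts per gene (total, exon, intron and uniquely placed reads, all count units) and RPKM values, per the file headers; the genome build is Rnor_5.0 per the submitters' processing notes. For the aligner and the strand setting of counting, the status is: not given in the sources used here. Total gene reads were tested as deposited counts with edgeR 4.0.16 in R 4.3.3 (TMM scaling, filterByExpr, robust quasi-likelihood fit of 12 libraries in 4 groups, 8 residual degrees of freedom, common biological coefficient of variation 0.157, Benjamini-Hochberg threshold 0.05); tested genes held 99.95% of reads. Exon and intron counts were compared in a stacked fit with a term per animal. Alternatives used DESeq2 1.42.0, limma 3.58.1, other scalings, log2(RPKM + 0.1) and log2(RPKM + 1) of the deposited RPKM values, and each library left out. Scripts were tested on simulated data. Tables were handled in Python 3.11.15 with pandas 2.3.3 and numpy 2.4.6.

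Members, gene lists and markers were chosen with earlier results of these data known. Genes were named by rule: among called genes whose libraries do not overlap between groups, the 15 largest rises and 15 largest falls with at least 2 CPM in the higher group and the 12 largest gains and losses in CPM; and, with no condition on overlap, the 10 largest exon-intron differences in each direction with at least 100 reads of each class, and up to 4 called members of each list. Rpl3, Rps23, Eif3h, Psma4, the other genes with opposite calls and those of the promoter windows were named after their values were seen. Some genes that met the rule are not reported here. Replicates are numbered in accession order. Promoters are from RefSeq, build GRCr8, which differs from the build of the counts. Gene names are those of the files, where 5742 models carry only an Ensembl ID.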

Additional observations from a re-analysis of the deposited data

Results flagged for a closer look

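The response of 3 named genes differed between the strains in the test of the difference itself (BN change minus HSD change, edgeR adjusted p over all genes). Clu fell by 1.92 in HSD and by 0.70 in BN on the log2 scale, a difference of 1.22 (edgeR adjusted p = 0.0367). Arnt2 fell by 2.77 in HSD and by 1.16 in BN, a difference of 1.61 (edgeR adjusted p = 0.00198). RT1-A2, a class I histocompatibility gene, rose by 1.62 in HSD, with 453, 498 and 308 CPM in HSD-P4 and 180.4, 121 and 108 CPM in HSD-Oil, while its BN change was -0.70, a difference of -2.32 (edgeR adjusted p = 0.0231). Of its reads 95.04% were uniquely placed. The other 5 genes with a called difference are Il17re, Csrp2, Emid1, Slc25a15 and Atp7b. Slc25a15, the mitochondrial ornithine carrier, rose by 3.68 in HSD and 1.96 in BN, and the copper pump Atp7b, which lies near it on chromosome 16, rose by 4.08 in HSD and 1.85 in BN.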

How the results depend on the processing

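Total intron reads called 3661 genes, 1875 higher and 1786 lower, against 6133, 3193 and 2940 in total gene reads. The 6 HSD libraries fitted alone called 4172, with 1932 lower. Leaving out 1 HSD library gave 4774 (without HSD-Oil replicate 1) to 6583 (without HSD-P4 replicate 2) calls, DESeq2 gave 6415, library size alone 6389 and no filter on low counts 5749. On log2(RPKM + 1), 943 genes passed at 2-fold, against 1685. The exon change lay above in 622 genes; this was 413 in the HSD libraries alone and 290 to 749 with a library left out. The intron change lay above in 549; this was 203 with a common scaling (735 above in exons), 355 in the HSD libraries alone and 262 to 598 with a library left out. The lowest were without HSD-Oil replicate 1 (290 and 262) and without HSD-P4 replicate 1 (351 and 323), and without HSD-Oil replicate 3 the second was 345. Total intron reads turned the direction of Eef1a1 (0.58), Eef2 (0.90), Pabpc1 (0.13) and Rps16 (0.87), and log2(RPKM + 0.1) and log2(RPKM + 1) that of Nos1 (0.0239 and 0.0027); the cause was not tested. Of 187 named genes 147 kept direction and call under every setting, and of 20 named for exon against intron 16 did. Calls of Krt15, Fos, Atf3, Areg, Rps2, Rps16 and Nr4a3 were among those lost. No paired analysis was possible because no number in the labels ties a library of HSD-P4 to one of HSD-Oil. Depth limits genes near 3 reads.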
